A study of Canis lupus familiaris with 22 samples.

Results

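The macular and the peripheral RPE/choroid of the same dogs were compared by RNA-seq. The comparison was made up of the 8 libraries, of 22 in the series, whose titles give macular RPE/choroid (4 libraries) or peripheral RPE/choroid (4 libraries), with 1 library of each kind from each of dogs 18-2, 18-6, 18-7 and 18-9. All 4 were mixed-breed dogs, and the labels name no treatment. Dogs 18-2 (pitbull mix, estimated age 2 to 3 years) and 18-6 (mastiff mix, 3 to 5 years) were male and gave left eyes. Dogs 18-7 (pitbull mix, 3 to 5 years) and 18-9 (boxer mix, 2 to 3 years) were female and gave right eyes, so sex and eye side cannot be told apart, although neither enters a difference taken within a dog. The 8 retina libraries of these dogs and 6 macular RPE/choroid libraries of 3 other mixed-breed dogs (1, 2 and 3), taken from both eyes with the retina in place in one and removed before sampling in the other, served only as outside references.

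The retinal pigment epithelium (RPE) is the pigmented cell layer beneath the photoreceptors. It recycles the visual chromophore, takes up shed photoreceptor outer segments and forms the outer blood-retina barrier. The choroid behind it carries the vessels that feed the outer retina and also holds melanocytes, fibroblasts, immune cells and nerves. The macula serves central, sharp vision, and the dog, which lacks a primate-like foveal pit, has a small cone-rich centre within it. The sampled tissue is a mixture of cell types, and a higher level of a gene in bulk RNA can come from more cells of a type or from more RNA per cell, which cannot be told apart here.

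Each library was a table of raw read counts for 30951 dog Ensembl identifiers. None of these identifiers is paired with a gene symbol in the files or matched the reference table used here, so marker genes and pathways could not be read and the labelled tissue could not be checked by its known markers. It was checked by level instead. The 200 identifiers most in excess in retina over the RPE/choroid of dogs 1 to 3 (the retina list) summed to between 174 and 463 CPM (read counts scaled by the library's total count) in the 8 RPE/choroid libraries, which was 0.817% to 2.24% of their level in the retina of the same region and dog. Total counts ran from 2690847 (peripheral, dog 18-6) to 7044176 (macular, dog 18-9). No small group of identifiers held a large part of the counts. The most abundant identifier held 0.0986% to 0.143% of a library's counts, and the 20 most abundant held 1.57% to 2.03%. The highest mean level among the identifiers tested was 1123 CPM, 23.6 times the median of 47.7 CPM, and what in the processing set this range is not given in the sources used here.

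The difference between regions was tested for 14352 identifiers with edgeR's quasi-likelihood test, with the dog as a block. The threshold was an adjusted p (Benjamini-Hochberg) under 0.05. In the macula 1175 identifiers (8.19%) were higher and 755 (5.26%) were lower, together 13.4% of those tested. The excess of higher over lower calls was not shared by DESeq2, which called 1144 higher and 1319 lower. All 1175 and all 755 had the same direction in 4 of 4 dogs, which a paired test on these dogs favours. Over all tested, 6734 (46.9%) had the same direction in every dog. The median log2 fold change was 0.64 among the higher and -0.62 among the lower identifiers. At least 4-fold differences were found for 96 higher and 49 lower identifiers, and at least 8-fold differences for 25 and 19. The calls were spread over the whole range of expression. Among the 3588 identifiers of lowest mean level (0.60 to 4.11 log2 CPM) 7.02% were called higher and 3.87% lower, and among the 3588 of highest level (6.57 to 10.14 log2 CPM) 8.50% and 5.63%. Groups did not overlap, with all 4 macular libraries above all 4 peripheral ones or below them, for 833 of the 1175 and 231 of the 755. Over all tested, 1469 (10.2%) lay above and 508 (3.54%) below in this way. The count rested on the pairing and on single dogs. Without the dog block it was 349, without dog 18-2 it was 74, without dog 18-9 it was 239 and without dog 18-6 it was 359 (edgeR). Without dog 18-7 it was 2683, with 1396 lower. The level of the retina list was lower in the macula in 3 of the 4 dogs, and the regions overlapped in it. With that level as a covariate edgeR called 0, with 2528 identifiers at an unadjusted p under 0.05. The covariate leaves 2 residual degrees of freedom, against 3 without it. Whether the calls were lost through the retina list or through the smaller fit was not tested.

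**Figure D1:**
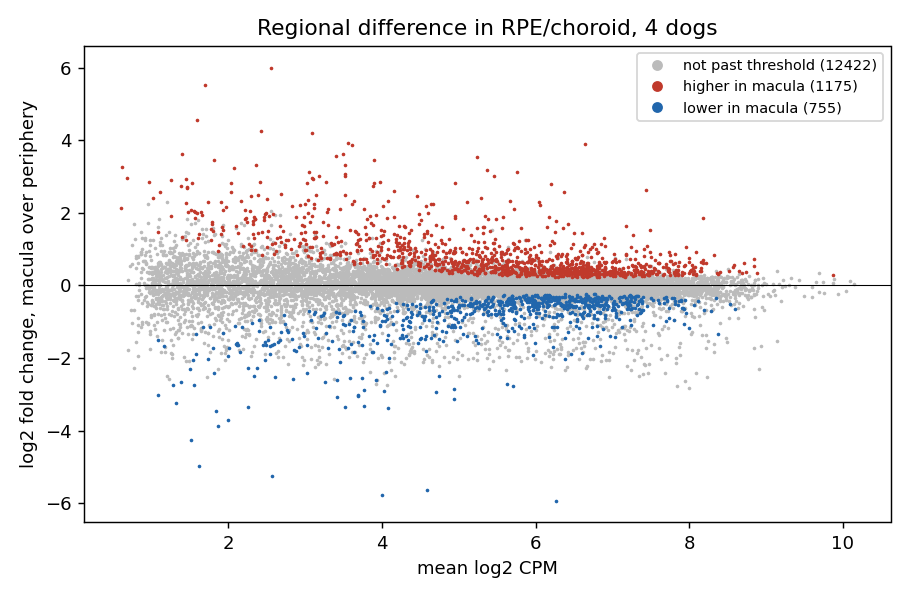
Regional difference in RPE/choroid for each of 14352 identifiers, as the log2 fold change of macula over periphery (vertical axis) against mean log2 CPM (horizontal axis), with 4 dogs. Red points are the 1175 identifiers called higher and blue points the 755 called lower; called identifiers lie at all levels, and grey points with falls of about the same size as called ones did not pass the threshold.

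A small set of identifiers differed strongly in each of the dogs. The ratio of macula to periphery was taken in each dog on log2(CPM + 0.5). It was at least 2-fold upward in every dog for 149 identifiers (1.04% of those tested) and at least 2-fold downward in every dog for 75 (0.523%). Of these, 148 and 65 passed the test across dogs. The median CPM of the 149 was 19.6 in the macula, against 4.16 in the periphery, and that of the 75 was 3.16 against 16.5. With a pseudocount of 2 CPM the counts were 98 and 42, and without dog 18-7 they were 225 and 177. A rule over fewer dogs is looser, and the counts rose whichever dog was left out. Such identifiers lay at the low end of expression, with 92 of the 149 and 59 of the 75 among the 3588 of lowest mean level. One identifier had at least 10 counts in every macular library and at most 1 in every peripheral one, and none had the reverse.

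Of all identifiers past the threshold with a mean of at least 4 log2 CPM, ENSCAFG00000000667 and ENSCAFG00000012848 had the largest rise that every dog shared. ENSCAFG00000000667 stood at 196, 147, 154 and 252 CPM in the macula of dogs 18-2, 18-6, 18-7 and 18-9, and at 14.1, 4.09, 13.6 and 16 CPM in the periphery. The groups did not overlap, and the lowest macular value was several times the highest peripheral one. Its log2 fold change was 3.91 ± 0.20 (SE, n = 4 dogs, edgeR adjusted p = 0.00289). In the same order of dogs, the macular CPM of ENSCAFG00000012848 were 111, 27.8, 55.9 and 76.9, and its peripheral CPM were 9.98, 0.743, 6.46 and 5.48. Dog 18-6 was the lowest in both regions, on only 2 counts in the periphery, and the groups again did not overlap. The log2 fold change was 3.53 ± 0.19 (SE, n = 4 dogs, edgeR adjusted p = 0.00289).

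Both identifiers were far lower in retina. The mean CPM of ENSCAFG00000000667 was 3.34 ± 0.51 in the macular retina and 3.29 ± 1.07 in the peripheral one (SD, n = 4 each). That of ENSCAFG00000012848 was 0.258 ± 0.131 and 0.330 ± 0.557. In the macular RPE/choroid of dogs 1 to 3, which had no part in the comparison, ENSCAFG00000000667 lay between 82.7 and 240 CPM and ENSCAFG00000012848 between 15.7 and 90.7 CPM. Every one of these 6 libraries was above the highest peripheral value of the identifier in the 4 dogs. The regional difference itself was larger in RPE/choroid than in retina for both, by 3.87 ± 0.39 and 3.96 ± 1.04 on the log2 scale (SE, n = 4 dogs, edgeR interaction, adjusted p = 7.21e-04 and 0.0284). Both were named for their difference in RPE/choroid, and ENSCAFG00000012848, with at most 7 counts in any retina library, was too low to be tested in retina and entered this fit through its RPE/choroid level, so its value is a description.

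**Figure D2:**
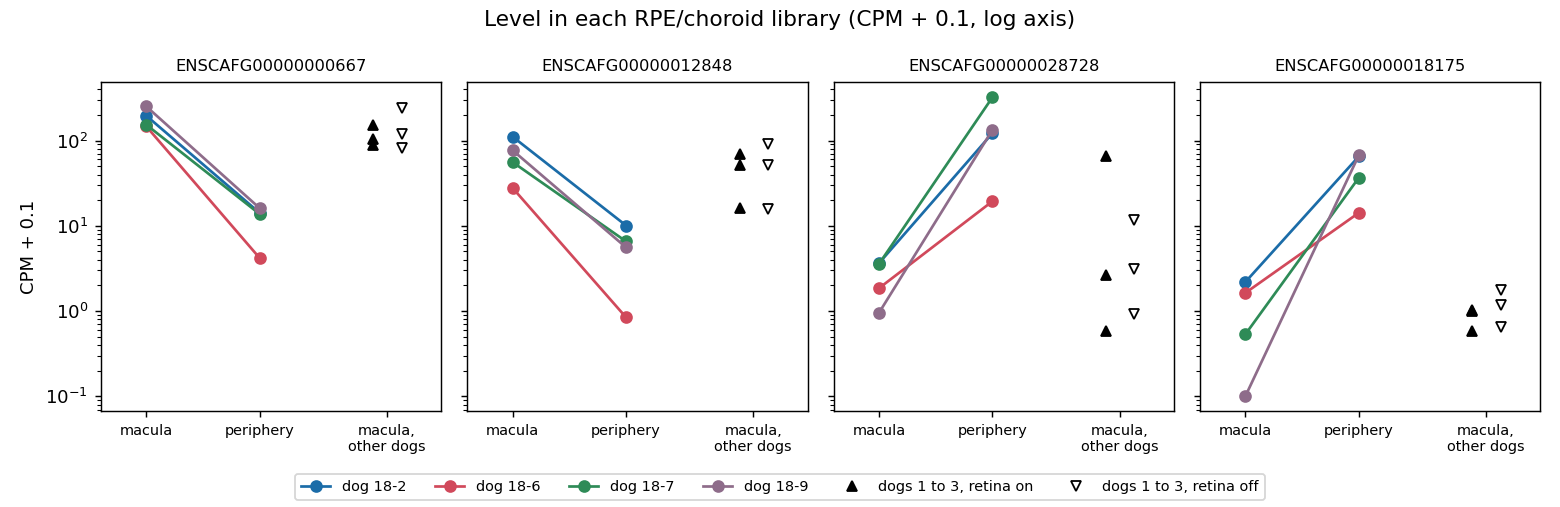
Levels of the 4 identifiers with the largest regional difference shared by every dog, as CPM + 0.1 on a log axis. Lines join the macular and peripheral RPE/choroid library of a dog, and triangles are the macular RPE/choroid libraries of dogs 1 to 3; ENSCAFG00000000667 and ENSCAFG00000012848 are higher in the macula of every dog, ENSCAFG00000028728 and ENSCAFG00000018175 are lower in it, and 1 triangle of ENSCAFG00000028728 (65.0 CPM) lies within the peripheral range.

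ENSCAFG00000028728 and ENSCAFG00000018175 had the largest fall that every dog shared. ENSCAFG00000028728 stood at 122, 19.3, 322 and 133 CPM in the periphery of dogs 18-2, 18-6, 18-7 and 18-9 and at 3.54, 1.75, 3.47 and 0.852 CPM in the macula. The peripheral values differed widely between dogs, while all macular values were low. It fell by 5.93 on the log2 scale (SE 0.43, n = 4 dogs, edgeR adjusted p = 0.00438). ENSCAFG00000018175 stood at 65.2, 14.1, 36.6 and 67.3 CPM in the periphery and at 2.09, 1.53 and 0.433 CPM in the macula of dogs 18-2, 18-6 and 18-7, with no count in that of dog 18-9. It fell by 5.63 on the log2 scale (SE 0.63, n = 4 dogs, edgeR adjusted p = 0.0106). This call was lost without dog 18-2 (edgeR adjusted p = 0.0676), with a log2 fold change of -6.08.

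In the macular RPE/choroid of dogs 1 to 3, ENSCAFG00000018175 lay between 0.483 and 1.66 CPM, under every peripheral value of the 4 dogs. ENSCAFG00000028728 lay between 0.483 and 3.04 CPM in dogs 1 and 2 but at 65.0 CPM (retina on) and 11.7 CPM (retina off) in dog 3, so that it was not low in every macular library. The mean CPM of ENSCAFG00000028728 in retina was 1.90 ± 0.50 (macula) and 1.25 ± 1.12 (periphery, SD, n = 4 each). Its regional difference was more negative in RPE/choroid than in retina, with an interaction log2 value of -6.50 ± 0.90 (SE, n = 4 dogs, edgeR adjusted p = 0.00253). This identifier had been named for its fall in the same RPE/choroid libraries and had at most 17 counts in any retina library. Its interaction value is therefore a description. For ENSCAFG00000018175 the difference between tissues did not pass the threshold (interaction log2 value -5.80 ± 2.22, SE, n = 4 dogs, edgeR adjusted p = 0.0973), with retina at or below 0.429 CPM in every library.

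The dogs differed in how far their regions stood apart. The standard deviation of the log2 ratio of macula to periphery over the 14352 identifiers was 0.88 in dog 18-6 and 0.81 in dog 18-9, against 0.55 in dog 18-2 and 0.45 in dog 18-7. At least 2-fold lower in the macula were 1127 identifiers in dog 18-6 and 1005 in dog 18-9, but only 285 and 280 in dogs 18-2 and 18-7. Upward the counts were 937, 481, 647 and 345 in dogs 18-6, 18-9, 18-2 and 18-7. Across identifiers, which are not independent replicates, the ratios of dogs 18-6 and 18-9 correlated at 0.80 (Pearson), and those of the other pairs of dogs at 0.51 to 0.63. The peripheral library of dog 18-6 was the shallowest of the 8 and the macular library of dog 18-9 the deepest, and the part of depth in this spread was not tested. The split lay in the macula. The macular libraries of dogs 18-2 and 18-7 correlated at 0.967 and those of dogs 18-6 and 18-9 at 0.961, while macular libraries of different pairs correlated at 0.912 to 0.943. Peripheral libraries showed no such pairs, with 0.939 to 0.966.

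**Figure D3:**
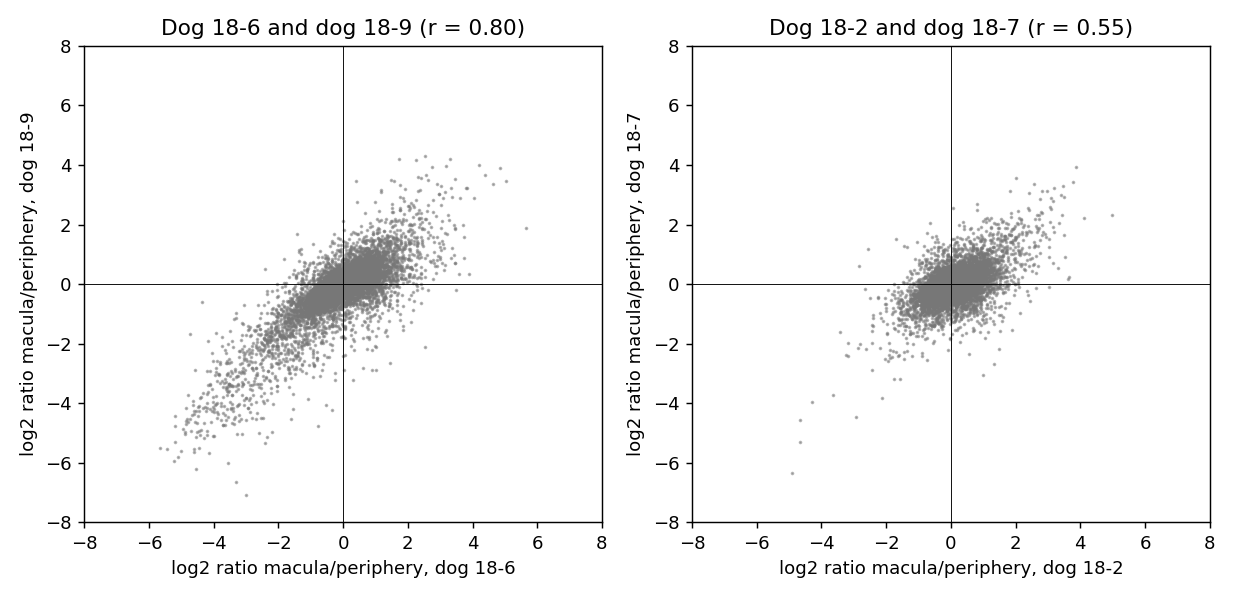
Log2 ratio of macula to periphery for each identifier in dog 18-9 against dog 18-6 (left) and in dog 18-7 against dog 18-2 (right). The left panel has a long lower tail of identifiers that were many times lower in the macula of both dogs, and the right panel has only a few such points.

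This lower tail was a set of identifiers that moved together. At least 4-fold lower in the macula of both dog 18-6 and dog 18-9 were 341 identifiers, against 15 in both dog 18-2 and dog 18-7 and 22 to 31 for the remaining pairs of dogs. At least 4-fold higher in both were 61, against 36 to 71 for the other pairs. The 341 were chosen by their values in these 4 libraries, after the ratios had been seen, so the low level there is no finding. They held 3358 and 2949 CPM in all in the macula of dogs 18-6 and 18-9, and 30753 and 27557 CPM in the periphery of these dogs. In the dogs that had no part in the choice, the set held 17677 CPM in the macula of dog 18-2 against 29440 CPM in its periphery, and 26543 against 33827 CPM in dog 18-7. There 329 of the 341 (96.5%) were lower in the macula of dog 18-2 and 316 (92.7%) in that of dog 18-7, where 48.6% and 50.7% of all identifiers tested were lower. The drop was smaller in these dogs, with a median log2 ratio of -0.81 in dog 18-2 and -0.45 in dog 18-7.

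The level of the set also varied between the macular RPE/choroid libraries of dogs 1 to 3, where the eye with the lower level was the retina-on eye in dog 2 and the retina-off eye in dog 3. In dog 2 it was 7558 CPM with the retina on and 26201 CPM with the retina off, and 76.0% of the 341 were at least 2-fold higher in the retina-off eye, against 6.05% of all identifiers tested. In dog 3 it was 14960 CPM with the retina on and 4564 CPM with the retina off, and 68.9% were at least 2-fold higher in the retina-on eye, against 3.51% of all. In dog 1 it was 21945 CPM (on) and 17109 CPM (off). Over all 14 RPE/choroid libraries the set ranged 11.5-fold, from 0.295% to 3.38% of counts. Over the 8 retina libraries it ranged 1.24-fold, from 18319 to 22802 CPM. In retina the set was higher in the macula of every dog, against its direction in RPE/choroid. It held 22802 against 19861 CPM in dog 18-6 and 22370 against 18839 CPM in dog 18-9. The gap was smaller in dog 18-2 (19205 against 18319 CPM) and dog 18-7 (19221 against 18788 CPM). By tissue, 89 of the 341 were preferential to RPE/choroid, 74 to retina, 98 were shared and 80 lay between. Of all 14352 identifiers tested these classes held 1695, 942, 8609 and 3106, so shared identifiers made up a smaller part of the set than of all. In the comparison of regions, whose libraries include the 4 that chose the set, 56 of the 341 (16.4%) were called lower. Of all identifiers tested 5.26% were called lower. ENSCAFG00000028728 and ENSCAFG00000018175 both belonged to the set, which follows from their falls of more than 4-fold in every dog. Their pattern over dogs was another one. Their log2 ratios were -3.30 and -3.01 in dog 18-6, their smallest falls, where the median of the set was -3.23. In dog 18-7 they were -6.35 and -5.31, where the median of the set was -0.45. Taking the 56 called members of the set away left 699 of the 755 lower calls, which is a subtraction and no further result. The part that this set plays in the other regional differences was not tested.

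**Figure D4:**
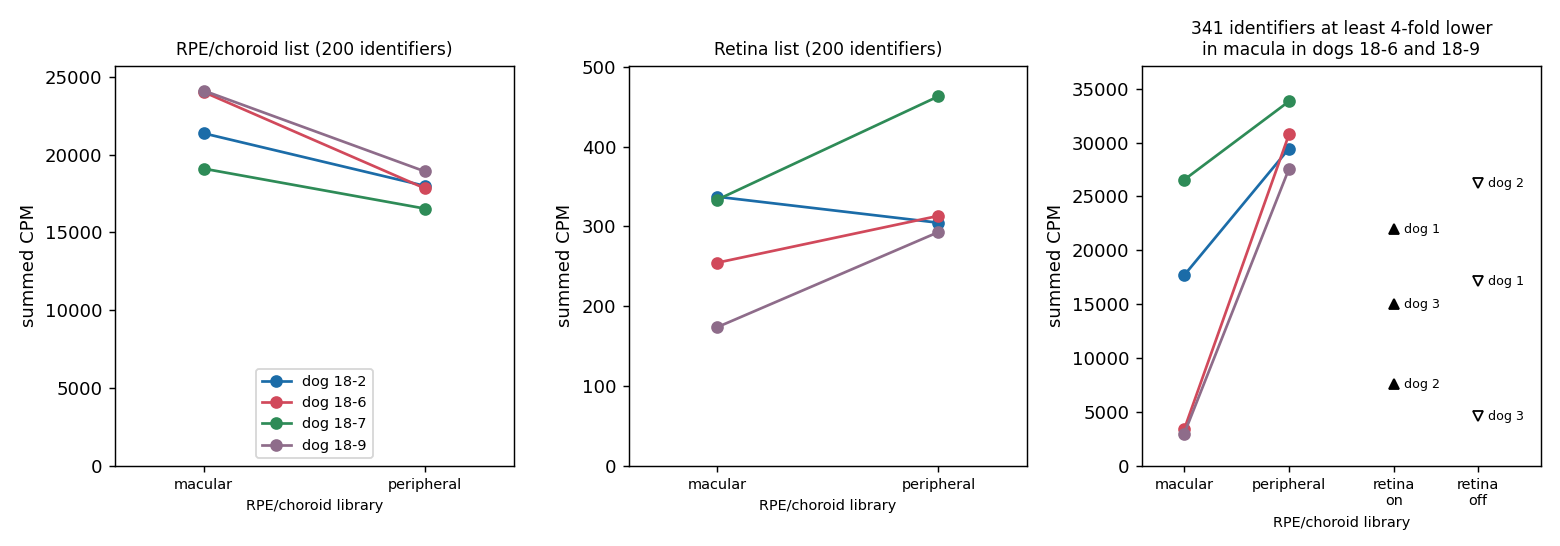
Summed CPM of the RPE/choroid list (left), the retina list (middle) and the 341 identifiers at least 4-fold lower in the macula of dogs 18-6 and 18-9 (right) in each RPE/choroid library, with lines joining the regions of a dog. The RPE/choroid list, chosen with macular RPE/choroid of dogs 1 to 3, is higher in the macula of every dog. The retina list is lower in the macula of 3 dogs. The set of 341 is lowest in the macula of dogs 18-6 and 18-9 and spans a wide range among the triangles of dogs 1 to 3.

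Identifiers were then grouped by tissue, using only libraries outside the comparison, namely the retina of the 4 dogs and the macular RPE/choroid of dogs 1 to 3. RPE/choroid-preferential identifiers (1695, at least 4-fold higher in RPE/choroid) were called higher in the macula in 428 cases (25.3%) and lower in 88 (5.19%), against 8.19% and 5.26% of all tested. Their median log2 fold change was 0.24, against -0.01 over all, and their median ratio was above 0 in each dog, at 0.27, 0.34, 0.10 and 0.23 in dogs 18-2, 18-6, 18-7 and 18-9. Retina-preferential identifiers (942, at least 4-fold higher in retina) were called higher in 71 cases (7.54%) and lower in 97 (10.3%). This order turned in smaller sets of calls, as 0.753% were higher against 0.215% lower when dog 18-2 was left out, 2.03% against 1.28% when dog 18-6 was, and 2.20% against 1.65% when dog 18-9 was. Without the dog block the shares were 2.87% against 1.17%. Grouped by retina level alone, the 11331 of 14352 identifiers over 10 CPM in retina were called higher in 6.63% and lower in 5.54%. This group holds most identifiers tested, so it gives the level in retina and not a preference for it. The median log2 fold change of the retina-preferential class was -0.16, with 0.06 in dog 18-2, -0.09 in dog 18-6, -0.25 in dog 18-7 and -0.23 in dog 18-9. Shared identifiers (8609, under 2-fold apart) were called higher in 412 cases (4.79%) and lower in 373 (4.33%), with a median of -0.03. The RPE/choroid side of this grouping came from macular tissue alone, which favours identifiers that are high in the macula. Grouped by the level in retina alone, 80 of 536 identifiers under 0.5 CPM in retina (14.9%) were called higher and 34 (6.34%) lower. The share of RPE/choroid-preferential identifiers called higher was 2.01% without dog 18-2, 5.38% without dog 18-9, 7.82% without dog 18-6 and 7.91% without the dog block. Over all identifiers of the same fits it was 0.433%, 1.35%, 1.84% and 2.04%. The share of the class called lower was 0.236%, 0.538% and 1.42% with these dogs left out, against 0.0756%, 0.331% and 0.635% over all.

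**Figure D5:**
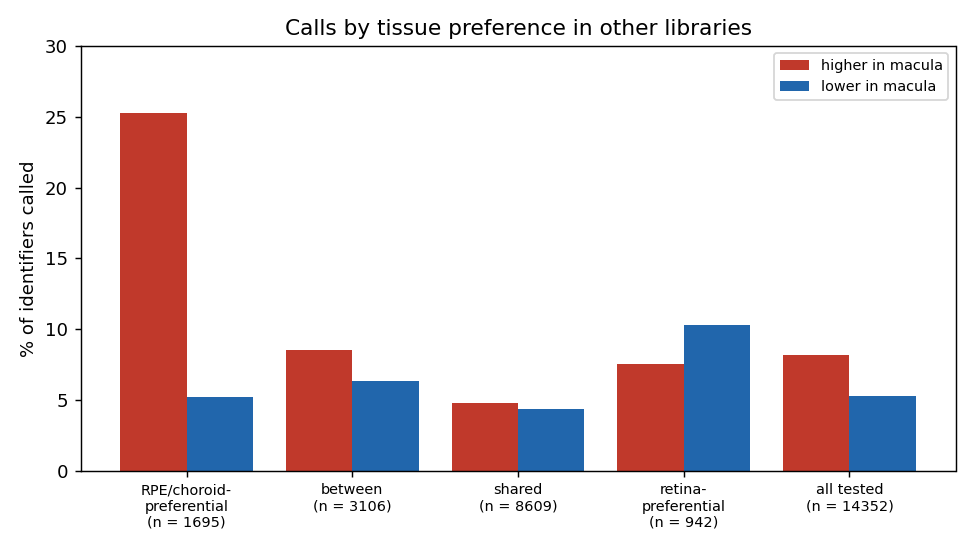
Share of identifiers called higher (red) and lower (blue) in macular than in peripheral RPE/choroid (edgeR, adjusted p under 0.05), by tissue preference in libraries outside the comparison. The red bar of the RPE/choroid-preferential class is at 25.3%, against 8.19% over all tested, and the retina-preferential bars are at 7.54% (red) and 10.3% (blue), an order that turned without dog 18-2, 18-6 or 18-9, without the dog block and at an adjusted p under 0.01. In those fits 74.4% to 85.1% of the calls over all identifiers were higher, against 60.9% in the fit shown.

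Summed levels were then taken over lists chosen from the same outside libraries as the classes, so they are no separate evidence beside them. The 200 identifiers most in excess in RPE/choroid over retina (the RPE/choroid list) held 21366, 24018, 19092 and 24111 CPM in macular libraries of dogs 18-2, 18-6, 18-7 and 18-9 and 17982, 17823, 16522 and 18913 CPM in the periphery. All 4 macular values were above all 4 peripheral values. The RPE/choroid side of this list came from macular tissue alone, which favours identifiers that are high in the macula. The mean log2 ratio was 0.31 ± 0.10 (SD, n = 4 dogs). The retina list held 337, 254, 334 and 174 CPM in these macular libraries, against 305, 313, 463 and 293 CPM in the peripheral ones. It was lower in the macula of 3 dogs and higher in that of dog 18-2, the groups overlapped, and the mean log2 ratio of -0.35 ± 0.38 (SD, n = 4 dogs) was within the spread between dogs. The macular libraries of dogs 18-6 and 18-9, in which the set of 341 was lowest, had the highest level of the RPE/choroid list and the lowest level of the retina list among the 4 macular libraries.

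The identifiers at least 2-fold apart in every dog were divided in the same way. Of the 149 that were higher in the macula, 67 were RPE/choroid-preferential, 29 retina-preferential and 31 shared. Of the 75 that were lower, 19 were RPE/choroid-preferential, 27 retina-preferential and 16 shared. The higher set took in 3.95% of RPE/choroid-preferential, 3.08% of retina-preferential and 0.360% of shared identifiers, against 1.04% of all tested. The lower set took in 1.12%, 2.87% and 0.186% of these classes, against 0.523% of all tested. Of all identifiers tested in RPE/choroid, 92.3% had enough counts to be tested between regions in retina too. The share was lower in the 149, of which 100 (67.1%) could be tested in retina. There 39 of the 100 were called higher in the macula and 9 lower (edgeR), against a background of 12.3% and 6.63% of all identifiers tested in retina. Of the 75, 44 (58.7%) could be tested in retina. There 13 (29.5%) were called higher and 3 (6.82%) lower in the macula. Most of those called thus moved against their direction in RPE/choroid. The median log2 fold change in retina was 0.31 for the 100 tested of the 149 and 0.28 for the 44 tested of the 75. These retina samples came from the same dogs and eyes but shared no library with the comparison. Over all identifiers, the regional difference was more positive in RPE/choroid than in retina for 1491 (9.57%) and more negative for 1502 (9.64%) of 15577 tested (edgeR interaction, n = 4 dogs). The total of these calls was 2993, and it was 1181 without dog 18-6 and 812 without dog 18-9.

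Each dog was also set against the calls of the other 3. Of the identifiers called by edgeR without dog 18-2, 62 of 63 higher and 11 of 11 lower ones had the same direction in that dog. Dog 18-6 had it for 266 of 267 higher and 85 of 88 lower calls that had a ratio in it, and dog 18-9 for 188 of 192 and 47 of 47. Dog 18-7 had it for 1153 of 1283 and 1299 of 1395. Over all identifiers tested, the sign in the left-out dog was the same as in the other 3 for 75.1%, 78.1%, 81.2% and 67.8% in dogs 18-2, 18-6, 18-9 and 18-7. The median log2 ratio in the left-out dog was 1.67 for higher and -1.65 for lower calls in dog 18-2, 1.29 and -1.05 in dog 18-6, 1.45 and -1.75 in dog 18-9, and 0.33 and -0.22 in dog 18-7. These medians and shares are over lists of different length, the longest being the one made without dog 18-7, and cannot be compared between dogs.

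The macular RPE/choroid of dogs 1 to 3 gave a further look at the macular side. For the 149 identifiers at least 2-fold higher in every dog, the level was nearer to the macular than to the peripheral mean of the 4 dogs for 78.5% and 89.3% in dog 1 (retina on and off), 83.2% and 69.8% in dog 2, and 52.3% and 72.5% in dog 3. Over all identifiers tested, whose group means mostly lie close together, the shares were 45.4%, 48.9%, 51.9%, 41.3%, 48.2% and 70.9% in the same order. For the 75 that were lower in every dog they were 65.3%, 73.3%, 81.3%, 60.0%, 66.7% and 78.7%. The retina-off library of dog 3 was as near to the macular mean over all identifiers as over the 149, and its retina-on library was only slightly nearer for the 149 than for all.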

How the data were processed

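The deposited files hold raw read counts per Ensembl identifier, per the file headers and their whole-number values. Total RNA, DNase-treated on the column, went into directional Illumina libraries, per the labels' protocols. Tools named in the submitters' processing notes, without roles, are featureCounts 2.0.0, HISAT2 2.1.0, SAMtools, FastQC 0.11.8 and Trimmomatic 0.39. The sources used here give no genome build, annotation release, strand setting or duplicate handling, so overlapping and antisense identifiers are uncertain.

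Counts were tested with edgeR 4.0.16 in R 4.3.3 (TMM, filterByExpr by region, dog as block, n = 4 dogs). Standard errors came from the fold change and its F statistic. The interaction with retina used the 8 RPE/choroid and 8 retina libraries with each dog's tissue as block. DESeq2 1.42.0 was an alternative. The script was checked on simulated data. CPM used total counts; ratios within dogs used TMM-scaled CPM.

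The pairing comes from the dog named in each title. Deviations from the region means correlated at 0.43 to 0.61 within dogs and at -0.41 to 0.00 across dogs. As the deviations cancel out over the dogs of a region, positive values within dogs force lower ones across dogs. No libraries were duplicates (chi-square per degree of freedom 7.73 to 25.8 between replicates). The labels give separate dogs.

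Identifiers were named by the largest value of the smallest within-dog log2 ratio, among those past the threshold with a mean of at least 4 log2 CPM, 2 in each direction. Planned gene lists needed symbols, and 0 of 30951 identifiers matched the reference table (assembly UU_Cfam_GSD_1.0). Comparison, classes and lists were chosen with earlier results of these data known, and the set of 341 after its ratios had been seen.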

Additional observations from a re-analysis of the deposited data

Results flagged for a closer look

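Among 29 groups of 4 values examined, of which chance flags about 1 in 20, 2 had a sample far from the others. The 20 most abundant identifiers held 2.03% of counts in the peripheral library of dog 18-6, the shallowest library. The summed level of the retina list was 463 CPM in the peripheral library of dog 18-7, above the other 3 peripheral libraries at 293 to 313 CPM. The regional difference differed between RPE/choroid and retina for 3 of the 4 identifiers named (edgeR interaction, n = 4 dogs), all of which had been named for a large difference in RPE/choroid. The value was 3.87 for ENSCAFG00000000667, 3.96 for ENSCAFG00000012848 and -6.50 for ENSCAFG00000028728 on the log2 scale. ENSCAFG00000012848 was too low to be tested in retina alone.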

How the results depend on the processing

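The number of identifiers called was the least stable value. Against 1930 (1175 higher and 755 lower), it was 349 (293 and 56) with no replicate block, 4365 (2383 and 1982) in a single fit over RPE/choroid and retina libraries and 105 (87 and 18) at an adjusted p under 0.01. With the retina list's level added as a covariate to the replicate block, which leaves 2 residual degrees of freedom, edgeR called 0 (0 and 0), with 2528 identifiers at an unadjusted p under 0.05 against 5238 without the covariate. ENSCAFG00000000667, ENSCAFG00000012848, ENSCAFG00000028728 and ENSCAFG00000018175 then had log2 fold changes of 3.94, 3.50, -5.17 and -4.89 (edgeR adjusted p = 0.0647, 0.0667, 0.0765 and 0.129). DESeq2 called 1144 higher and 1319 lower. With each dog left out the calls ran from 74 to 2683 (63 to 1287 higher, 11 to 1396 lower). The share of calls that were higher was 60.9%, and 84.0% with no block, 46.4% with DESeq2, 82.9% at 0.01, and 48.0% to 85.1% with a dog left out. In these fits, 0 of the 1930 were called in the opposite direction. All 1930 had the same direction in every dog, so refits of the same libraries could hardly reverse one. RLE normalization (1963) and no filter on low counts (2217) moved the count little. Without dogs 18-6 and 18-9 together, an alternative added after the data had been seen that leaves 1 residual degree of freedom, 1555 were called.

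The share of RPE/choroid-preferential identifiers called higher was 7.91% with no block, 2.71% at 0.01, 0% with the covariate, 14.9% in classes by retina level and 2.01% to 27.8% with a dog left out. Over all identifiers it was 2.04% with no block, 0.606% at 0.01, 0% with the covariate and 0.433% to 9.08% with a dog left out. Retina-preferential identifiers were called higher and lower in 7.54% and 10.3%, in 0.955% and 0.425% at 0.01, in 8.28% and 17.3% with DESeq2, and in 16.1% and 27.6% in the single fit. Over all identifiers these shares were 8.19% and 5.26%, 0.606% and 0.125%, 7.97% and 9.19%, and 15.3% and 12.7%. The interaction had 2993 calls, 705 with no block and 812 to 2532 with a dog left out. Counts at least 2-fold apart in every dog were 98 higher and 42 lower at a pseudocount of 2 CPM. With a dog left out, which loosens the rule, they ran from 168 to 225 and from 78 to 177. No named identifier and no mean list ratio changed direction in the alternatives run. The named identifiers had been chosen for a large difference in every dog, so theirs could hardly change. Depth limits ratios that rest on few counts, as in the peripheral library of dog 18-6.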
